A study of Homo sapiens with 17 samples.

Results

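Small nucleolar RNA (snoRNA) host genes carry snoRNAs inside their introns. 10 non-coding host genes were described: GAS5, SNHG1, SNHG3, SNHG5, SNHG6, SNHG8, SNHG12, SNHG15, ZFAS1 and DANCR. Their members are all listed positions, called sites here, that lie inside the GENCODE v29 (GRCh38) span of one of these genes on its own strand. The rule found 501 distinct sites of 158141 in the deposited tables. HEK293 cells, a line from human embryonic kidney, were permeabilised, and engaged polymerases were allowed to run on for 0.5, 2, 8 or 32 min in a buffer with or without sarkosyl, with 2 replicates of each combination. Sarkosyl is a detergent that removes many chromatin proteins but leaves engaged polymerases able to transcribe. The labels name no genetic change and no drug for these 16 libraries. The authors fitted 1 table of pausing times per buffer and replicate, called a series below, so each buffer has n = 2 series. The unit of time is not given in the sources used here, and times are printed as deposited.

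The sarkosyl series listed 196 member sites of 48566 in replicate 1 and 236 of 47713 in replicate 2. The sarkosyl-free series listed 219 of 66089 in replicate 1 and 148 of 41769 in replicate 2. The median pausing time over all sites was 1.49 and 1.34 with sarkosyl, against 2.23 and 8.00 in its absence, so sarkosyl-free replicate 2 stands apart in scale. Values are therefore also given relative to the median of all sites of a series, or as a percentile of that series. The tables carry no read numbers, and the depth behind a site is unknown. The labels name no batch; buffer and any batch run with it cannot be told apart. Nothing in the labels says that the replicates are separate cultures, so errors may be technical. As a check of the cell label, 6 of 8 genes typical of HEK293 had at least 1 site, as against 3 of 12 blood cell genes.

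Host genes of this kind are transcribed by RNA polymerase II, and their spliced transcripts are mostly short-lived. After splicing, the intron is opened and exonucleases trim it back to the snoRNA, whose bound proteins protect its ends. Box C/D snoRNAs, which end shortly after a CTGA motif called box D, guide ribose methylation of ribosomal RNA. Box H/ACA snoRNAs, which end shortly after an ACA motif, mostly guide pseudouridine formation.

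The 10 spans hold 35 annotated snoRNAs, 25 of the C/D class, 9 of the H/ACA class and 1 (RF00099 in SNHG1) with no class in its name. GAS5 (chr1:173863900-173868882, minus strand) has 11 and SNHG1 (chr11:62851988-62855914, minus strand) has 9. SNHG12 (chr1:28578538-28583132, minus strand) has 4 and ZFAS1 (chr20:49278178-49295738, plus strand) has 3. SNHG3 (chr1:28505980-28510892, plus strand) and SNHG5 (chr6:85660950-85678748, minus strand) have 2 each. SNHG8 (chr4:118278709-118279823, plus strand), SNHG15 (chr7:44983023-44986961, minus strand), DANCR (chr4:52712404-52720351, plus strand) and SNHG6 have 1 each. SNHG3 shares its strand and part of its span with the coding gene RCC1, and sites there cannot be assigned to one of the pair.

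Nearly every one of these snoRNAs had a listed site at its 3′ end, at the same base in several tables. The sequences show such sites in GENCODE v29 transcripts (GRCh38). They are printed because the position of the site relative to the box motif is the pattern that the rest of the account turns on. The single capital marks the base at the site, which all 4 series listed.
SNORD44: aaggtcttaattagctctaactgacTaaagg
SNORD80: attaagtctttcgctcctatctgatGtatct
SNORD76: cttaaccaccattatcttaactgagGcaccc
SNORD30: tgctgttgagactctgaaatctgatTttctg
SNORD29: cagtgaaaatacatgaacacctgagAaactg
SNORD12B: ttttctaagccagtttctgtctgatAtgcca
SNORD47: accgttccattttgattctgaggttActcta
SNORD22: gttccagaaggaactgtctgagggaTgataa
SNORD28: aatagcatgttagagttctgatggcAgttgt
SNORA16A: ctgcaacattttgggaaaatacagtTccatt
SNORA61: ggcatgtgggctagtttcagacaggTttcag
SNORA24: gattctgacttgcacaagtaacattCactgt
SNORA73A: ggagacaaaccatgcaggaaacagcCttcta

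The GAS5 windows are chr1:173865963-173865993 for SNORD44, chr1:173864828-173864858 for SNORD80, chr1:173866631-173866661 for SNORD76 and chr1:173864363-173864393 for SNORD47. The SNHG1 windows are chr11:62853661-62853691 for SNORD30, chr11:62853902-62853932 for SNORD29, chr11:62852905-62852935 for SNORD22 and chr11:62854616-62854646 for SNORD28. The others are chr20:49280377-49280407 for SNORD12B in ZFAS1, chr1:28580915-28580945 for SNORA16A and chr1:28579759-28579789 for SNORA61 in SNHG12, chr4:118279295-118279325 for SNORA24 in SNHG8 and chr1:28507546-28507576 for SNORA73A in SNHG3. In 13 of 21 C/D windows with known bases, 1 base separated CTGA from the site, as in SNORD44. In 7 of the 21 there were 4 bases between, as in SNORD22, and in 1 there were 5. In 5 of 6 H/ACA windows 2 bases separated ACA from the site, while the window of SNORA44 held no ACA. On the sense strand, CTGA with 1 to 5 bases before the site, or ACA with 2 bases before it, preceded 83.3% of 36 sites at snoRNA 3′ ends and 8.57% of 210 other member sites with known bases. The spacings were taken from these same end sites, so the 2 shares describe the sites and test nothing. These motifs are where the classes of snoRNA are known to carry them, so their presence describes the position only. Whether these sites are positions of engaged polymerases or ends of trimmed snoRNAs was not tested.

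Within 7 bp of an annotated 3′ end, a site was listed for 33 of the 35 snoRNAs in sarkosyl replicate 1 and for 32 in sarkosyl replicate 2. The numbers were 34 and 33 in the sarkosyl-free series. A window of the same 15 bp from 8 to 22 bp beyond the end held a site for 0, 2, 3 and 1 snoRNAs in the 4 series, and that from 8 to 22 bp inside it for 1, 0, 1 and 1. At 5′ ends the numbers within 7 bp were 1, 2, 0 and 0. All 4 series listed a 3′ end site for 32 snoRNAs, 24 of 25 C/D and 8 of 9 H/ACA, and for 28 of them at one and the same base. The exceptions were SNORA103 in GAS5, with no such site in any series, RF00099, with one in sarkosyl-free replicate 1 only, and SNORD50B in SNHG5, which lacked one in sarkosyl replicate 2. Within 3 bp the number in all 4 series was 25. For SNORD87 in SNHG6 and SNORD12, SNORD12B and SNORD12C in ZFAS1 the site lay 7 bp inside the end of the annotation.

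**Figure D1:**
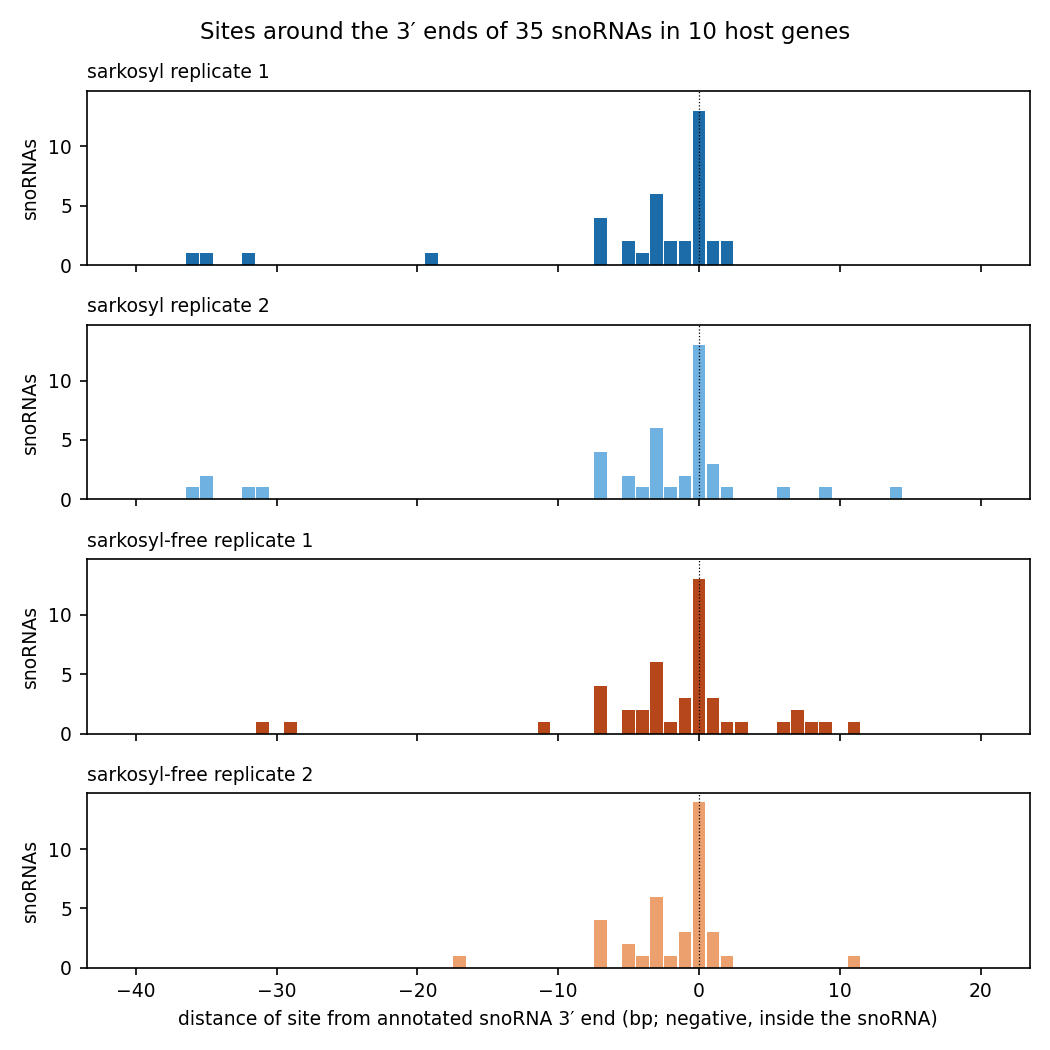
Number of the 35 snoRNAs with a listed site at each distance from the annotated 3′ end (x axis, bp, negative inside the snoRNA), 1 panel per series. In each series the sites are concentrated between 7 bp inside and 3 bp beyond the end, with 33, 32, 34 and 33 snoRNAs having a site within 7 bp.

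Sites at snoRNA 3′ ends formed a small share of the member sites and most of the recurrent ones. Of the 501 sites, 45 (8.98%) lay within 7 bp of a 3′ end. The share was 2.88% of 313 sites listed in 1 series, 2.48% of 121 in 2 series, 20.8% of 24 in 3 series and 65.1% of 43 in all 4. Away from the ends, 15 of 456 member sites (3.29%) were in all 4 series. On the autosomes outside the members, 1.76% of 148997 sites were, and 6.55% of those 2624 recurrent sites lay at an annotated snoRNA 3′ end.

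**Figure D2:**
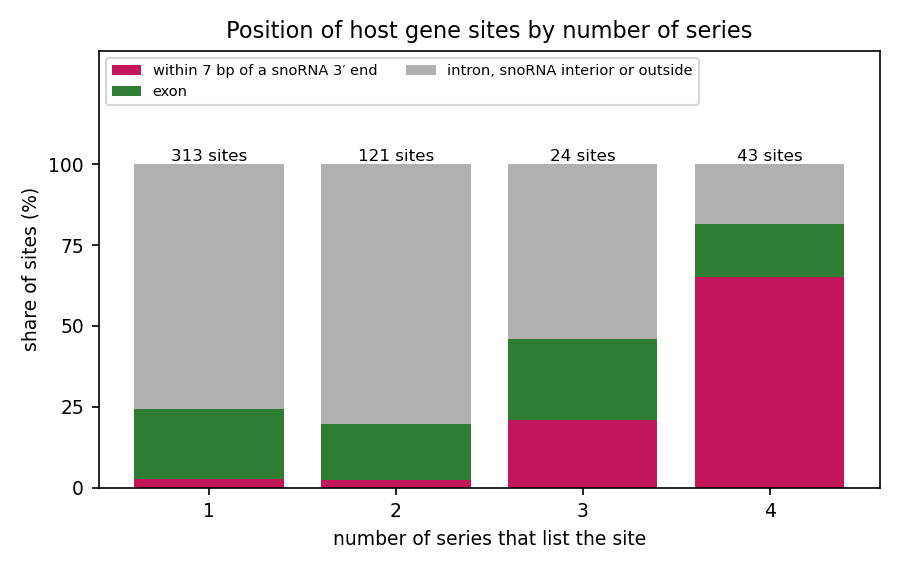
Share of member sites (y axis, %) within 7 bp of a snoRNA 3′ end, in exons, and elsewhere, by the number of series that list the site (x axis; site numbers above the bars). The share at snoRNA 3′ ends is 2.88% among sites in 1 series and 65.1% among sites in all 4.

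Such sites were also found at snoRNAs of other genes, at shares that differed between lists. In the members 32 of 35 snoRNAs (91.4%) had a 3′ end site in all 4 series. In 45 protein-coding hosts, such as genes for ribosomal proteins and translation factors, 91 of 108 snoRNAs (84.3%) had a 3′ end site in all 4 series. In 14 other non-coding hosts 23 of 111 (20.7%) did. That list includes SNHG14, which carries long arrays of snoRNAs known mainly from brain. Over all 920 annotated autosomal snoRNAs outside the members the number was 198 (21.5%), and whether these are transcribed in HEK293 was not tested.

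The base at the site set these positions apart from other member sites. Of 42 distinct 3′ end sites with a known base, 22 (52.4%) were at A or T. Elsewhere in the members 14 of 224 (6.25%) were. Over all sites of the tables that lie in annotated exons, C or G made up 94.0% to 96.2% in each series and strand. Away from the ends, C was found at 74.7% and 72.6% of member sites with sarkosyl and at 56.2% and 29.2% without it, and G at 22.9% and 20.8% with sarkosyl and 39.3% and 62.5% without it. At the 3′ end sites A or T made up 56.3%, 58.1%, 59.5% and 57.6% in the 4 series. No base was known for 235 member sites, 214 of them in introns.

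Taking the site nearest each snoRNA 3′ end, the lowest and highest pausing times lay further apart without sarkosyl than with it. The quartiles, taken over all sites within 7 bp of an end, did not show this. They were 1.48 and 2.77 in sarkosyl replicate 1 and 1.28 and 1.70 in replicate 2. Without sarkosyl they were 0.61 and 1.03 in replicate 1 and 1.24 and 2.87 in replicate 2. Over those sites the highest time in sarkosyl replicate 1 was 8.62. At the nearest sites the lowest, median and highest times were 1.09, 1.96 and 5.15 over 33 snoRNAs in sarkosyl replicate 1. In replicate 2 they were 0.93, 1.53 and 2.67 over 32. Without sarkosyl they were 0.25, 0.86 and 6.41 over 34 snoRNAs in replicate 1 and 0.25, 2.05 and 5.56 over 33 in replicate 2. Each of the sarkosyl medians thus lay above the median of its series, while both sarkosyl-free medians lay below theirs. Relative to all sites of the series, the log2 medians were 0.40 and 0.19 with sarkosyl (mean 0.29 ± 0.15, SD, n = 2), against -1.37 and -1.96 in its absence (mean -1.67 ± 0.42, SD, n = 2). In percentiles the medians were 59.8 and 58.4 with sarkosyl, against 30.7 and 24.1 in its absence. Above its series median were 24 of 33 and 24 of 32 snoRNAs with sarkosyl, as against 2 of 34 and 0 of 33 without it.

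The direction rests in part on the reference. Relative to the 2967 sites common to the 4 tables, whose log2 medians were 0.28, 0.35, 0.40 and 0.51, the snoRNA medians were 0.69 and 0.26 with sarkosyl, against -0.61 and 0.52 in its absence. On that scale the sarkosyl-free series differ in sign and the buffers overlap. The deposited times themselves were lower in sarkosyl-free replicate 1 than in both sarkosyl series for 29 of 32 snoRNAs, but lower in both sarkosyl-free series for 11.

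**Figure D3:**
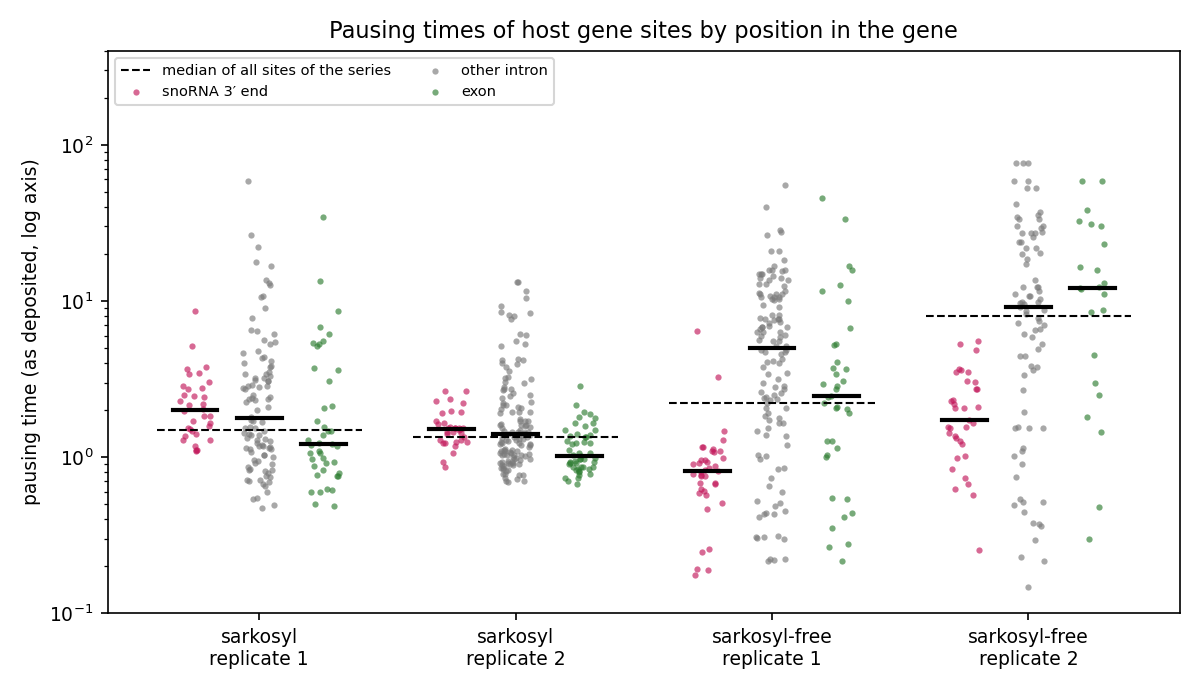
Pausing times of member sites as deposited (y axis, log scale) within 7 bp of snoRNA 3′ ends, in other intron positions and in exons, for each series. Points are sites, thick bars class medians and dashed lines the median of all sites of the series; most snoRNA 3′ end sites lie above the dashed line with sarkosyl and below it without.

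Single snoRNAs show how far this held. SNORA73A in SNHG3, the U17 snoRNA needed for ribosomal RNA processing, had times of 3.68 and 1.98 with sarkosyl, against 0.68 and 0.83 in its absence, with no overlap. SNORA16A in SNHG12 had 2.78 and 1.94 with sarkosyl, against 0.67 and 0.57 in its absence. SNORD12 in ZFAS1 had 3.46 and 2.66 with sarkosyl, against 0.93 and 0.67 in its absence. In these 3 the sarkosyl values were all higher. SNORD44 in GAS5 had 1.70 and 1.34 with sarkosyl, against 0.99 and 3.52 in its absence. SNORD29 in SNHG1 had 2.46 and 1.51 with sarkosyl, against 1.10 and 5.56 in its absence. In both the sarkosyl values lay between the sarkosyl-free ones. SNORD22 in SNHG1 was nearly level, at 1.36 and 1.40 with sarkosyl, against 1.47 and 1.55 in its absence.

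By class, the log2 medians of the C/D snoRNAs relative to their series were 0.28, 0.16, -1.29 and -1.94, and those of the H/ACA snoRNAs 0.63, 0.20, -1.71 and -3.12. The classes share the same 4 series, and their difference was not tested. In every one of the 10 host genes the median over sites in or within 10 bp of a snoRNA was below the series median in both sarkosyl-free series. In SNHG6, SNHG8 and DANCR it rests on 1 such site per series, in SNHG5 on 2 and in SNHG15 on 2 and 1. In the protein-coding hosts 95 of 97 and 98 of 100 snoRNA 3′ end sites lay below the series median without sarkosyl. Over the snoRNAs of the protein-coding hosts the log2 medians were 0.57, 0.27, -1.61 and -2.52, so the order of the buffers was not particular to the members.

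Of the 43 member sites in all 4 series, 28 were at snoRNA 3′ ends. At 28 of these 28, both sarkosyl values lay above both sarkosyl-free values relative to all sites of a series, and so did 51.9% of the 2967 common sites. Relative to the common sites the number was 14 of 28, with 31.6% of all common sites. As deposited it was 12 of 28, with 29.2% of all common sites. The opposite order, with both sarkosyl values below, was found at 0, 0 and 1 of the 28, and at 9.27%, 25.7% and 27.1% of all common sites. The 15 other member sites showed a different split: relative to the common sites, both sarkosyl values lay above in 1 and below in 8.

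Site by site, limma found 0 of 2967 common sites (0.0%) with a Benjamini-Hochberg adjusted p under 0.05 for sarkosyl minus sarkosyl-free, and so none of the 43 member sites. At an unadjusted p under 0.05 limma gave 689 common sites (23.2%) and 10 of the 43 member sites (23.3%), a share near the background. Of these 10, the 4 at snoRNA 3′ ends were higher with sarkosyl. Of the 6 others, 5 were lower. The median log2 difference was 0.80 over the 28 snoRNA sites, from -0.52 to 2.42, and -1.37 over the 15 others, from -5.28 to 1.80. Over all common sites it was 0.22. The number of sites called depended on which series was left out. Fits without a series leave 1 series in an arm, which is assumed to vary like the other buffer.

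Compared with other intron sites, the snoRNA sites had opposite signs in the 2 buffers. The median log2 pausing time of sites inside snoRNAs minus that of intron sites was 0.30 and 0.14 with sarkosyl (mean 0.22 ± 0.11, SD, n = 2), against -2.37 and -2.23 in its absence (mean -2.30 ± 0.10, SD, n = 2). The means of the buffers differ by 2.53, which is larger than the spread between replicates in either buffer; the difference was not tested. As the mean of within-gene differences the sarkosyl value was -0.13 ± 0.71 (SD, n = 2) and the sarkosyl-free value -1.95 ± 0.42. The reversal of the sarkosyl sign comes from replicate 1, at -0.63, as against 0.38 in replicate 2. Inside the snoRNAs but over 7 bp from the 3′ end there were 12 sites. With sarkosyl their medians were 7.46 over 5 sites and 3.61 over 7, the longest of any class, and none was listed in all 4 series.

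The authors' fits were less certain at these sites than at other member sites in 3 of the 4 series. The upper quartile of the rate divided by its lower quartile, a measure of the spread of an estimate, had a median of 2.80 and 3.49 at snoRNA 3′ end sites with sarkosyl, against 4.91 and 2.84 in its absence. Over other member sites the medians were 2.80 and 3.12 with sarkosyl, against 2.84 and 2.17 in its absence, so in sarkosyl replicate 1 the classes hardly differed. The estimate was more certain than that of the median site of the series at 14 of 34 and 10 of 34 end sites with sarkosyl, and at 5 of 39 and 0 of 35 without it. Over all sites, a description with no test, the Spearman correlation of this ratio with the pausing time was 0.56 and 0.96 with sarkosyl, against -0.81 and -0.95 in its absence. Short times were thus the more certain ones with sarkosyl and the less certain ones without it.

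The level of whole genes was compared next, as the median log2 pausing time over the sites of a gene minus that of all sites of the series. 9 of the 10 genes had at least 3 sites in each series and were tested together with all such genes, 1769 in all; SNHG6, with as few as 2 sites, was not. GAS5, known from growth-arrested cells, stood at 0.45 and 0.22 with sarkosyl, against -1.19 and -1.49 in its absence. SNHG12 stood at 0.07 and 0.09 with sarkosyl, against -1.73 and -1.88 in its absence. In both genes the sarkosyl series were higher, with no overlap. SNHG1, the host of the U22 and U25 to U31 snoRNAs, stood at 0.72 and 0.07 with sarkosyl, against -0.79 and -1.95 in its absence. DANCR, which hosts SNORA26, stood at 0.52 and 0.09 with sarkosyl, against -0.80 and -2.35 in its absence. Again no values overlapped between buffers, but the sarkosyl-free replicates lay over 1 log2 unit apart in both genes. How many of all 1769 genes had no overlap was not counted. Here and for the genes below, overlap therefore describes the values only.

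ZFAS1, transcribed divergently from the start of ZNFX1, stood at -0.06 and 0.13 with sarkosyl, against 0.75 and -0.71 in its absence. SNHG5, the host of the U50 snoRNAs, stood at -0.03 and 0.05 with sarkosyl, against 0.92 and 0.07 in its absence. SNHG3 stood at 0.52 and -0.30 with sarkosyl, against -0.01 and 0.20 in its absence. The buffers overlapped in ZFAS1 and SNHG3. In SNHG5 the sarkosyl values were both lower, with 0.05 and 0.07 as the nearest pair. SNHG15, the host of SNORA9, stood at 0.25 and -0.19 with sarkosyl, against -0.17 and 0.90 in its absence. SNHG8, the shortest of the genes, stood at 0.15 and -0.06 with sarkosyl, against 0.47 and 1.12 in its absence. SNHG6 stood at -0.13 and -0.56 with sarkosyl, against 0.12 and 0.26 in its absence, the last over 2 sites. In SNHG8 and SNHG6 both sarkosyl values thus lay below both sarkosyl-free ones.

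No gene passed the test. Limma gave 0 of 1769 genes (0.0%) with an adjusted p under 0.05 for the buffers, and 162 (9.16%) with an unadjusted p under 0.05. Of the members 4 of 9 were among the latter: SNHG12 with a log2 difference of 1.89 (SE 0.55), GAS5 with 1.68 (SE 0.56), SNHG1 with 1.77 (SE 0.66) and DANCR with 1.88 (SE 0.71). Their Benjamini-Hochberg adjusted p-values in limma were 0.434, 0.459, 0.505 and 0.505. The other 5 differences ran from -0.75 in SNHG8 to 0.02 in SNHG3. The median was 0.02 over the 9 members and 0.14 over all genes tested. Leaving out each series in turn, the log2 difference ran from 1.81 to 1.96 in SNHG12 and from 1.52 to 1.83 in GAS5. It ran from 1.19 to 2.35 in SNHG1 and from 1.11 to 2.66 in DANCR. Such fits leave 1 series in an arm, so only the sizes are given. Against the series median over both buffers, limma also called 0 genes (0.0%), with 208 (11.8%) at an unadjusted p under 0.05, among them SNHG12 alone of the members, with a log2 level of -0.86 (SE 0.27; adjusted p = 0.405). For that contrast, the log2 level ran from -0.90 to -0.82 in SNHG12 and from -1.02 to -0.25 in DANCR leaving out a series.

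**Figure D4:**
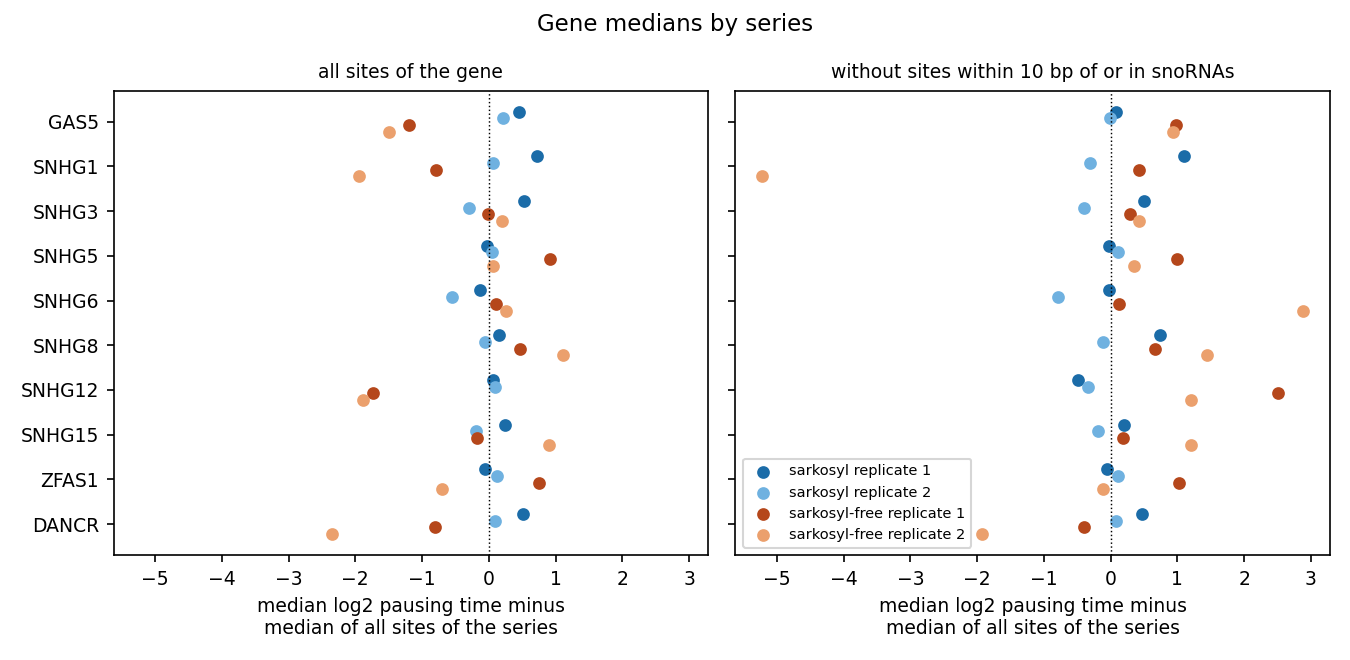
Median log2 pausing time of each gene minus the median of all sites of the series (x axis), over all sites of the gene (left) and without sites in or within 10 bp of snoRNAs (right). Points are series; GAS5 and SNHG12 lie below 0 without sarkosyl on the left and above 0 on the right.

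The levels of GAS5 and SNHG12 depended on their snoRNA sites. Sites in or within 10 bp of a snoRNA made up 17 of the 53 distinct sites of GAS5, 16 of 39 in SNHG1 and 6 of 25 in SNHG12. Without them GAS5 stood at 0.07 and -0.01 with sarkosyl, against 0.98 and 0.94 in its absence. SNHG12 stood at -0.48 and -0.34 with sarkosyl, against 2.51 and 1.20 in its absence. In both genes the order of the buffers was thus the opposite of that over all sites. In limma the log2 difference turned from 1.68 to -0.93 (SE 0.55; adjusted p = 0.692) in GAS5 and from 1.89 to -2.27 (SE 0.66; adjusted p = 0.465) in SNHG12. DANCR kept its order, with a log2 difference of 1.44 (SE 0.70, adjusted p = 0.628 in limma). SNHG1 kept the sign alone, with a log2 difference of 2.79 (SE 1.70). Its buffers then overlapped, at 1.10 and -0.31 with sarkosyl, against 0.42 and -5.22 in its absence, the last over 3 sites. Over the 8 members still tested the median was -0.53, over all 1741 genes 0.10, and limma called 0 genes (150 at an unadjusted p under 0.05, 1 of them a member).

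Other host genes were compared from 2 lists. Among 8 tested of 14 other non-coding hosts, the buffer difference was above 0 in 6 and below it in 2, with a median of 0.81, and limma gave 0 with an unadjusted p under 0.05. Among 45 tested of 48 protein-coding hosts it was above 0 in 33 and below it in 12, with a median of 0.38, and 7 had an unadjusted p under 0.05 in limma, all higher with sarkosyl. RCC1 is on the second list and shares sites with SNHG3.

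GAS5 shows the pattern along 1 gene. Of its 10 sites in all 4 series, 10 were at snoRNA 3′ ends, those of SNORD74, SNORD75, SNORD76, SNORD77, SNORD44, SNORD78, SNORD79, SNORD80, SNORD47 and SNORD81. At SNORD80 the times were 1.12 and 1.24 with sarkosyl, against 0.87 and 2.29 in its absence. At SNORD81 they were 2.04 and 2.20 with sarkosyl, against 1.16 and 5.29 in its absence. Between the snoRNAs, no site was in all 4 series. No GAS5 site lay in the first 915 bp of the span. The RefSeq start of GAS5 lies upstream of the span, as the site 939 bp from the span start is 1102 bp from it. Sites between that start and the span were outside the rule. From 916 to 978 bp there were 10 sites, each within 300 bp after another annotated start. Of these, 6 were in sarkosyl replicate 1 and 7 in replicate 2, as against 0 and 1 without sarkosyl. By the mean log2 time over the 2 replicates of a buffer, the site 978 bp from the start ranked first with sarkosyl, at 3.42 and 13.2, although other GAS5 sites were longer in replicate 1. By the same measure the first without sarkosyl, at 12.5 and 23.8, was 1379 bp from the start, in an intron.

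**Figure D5:**
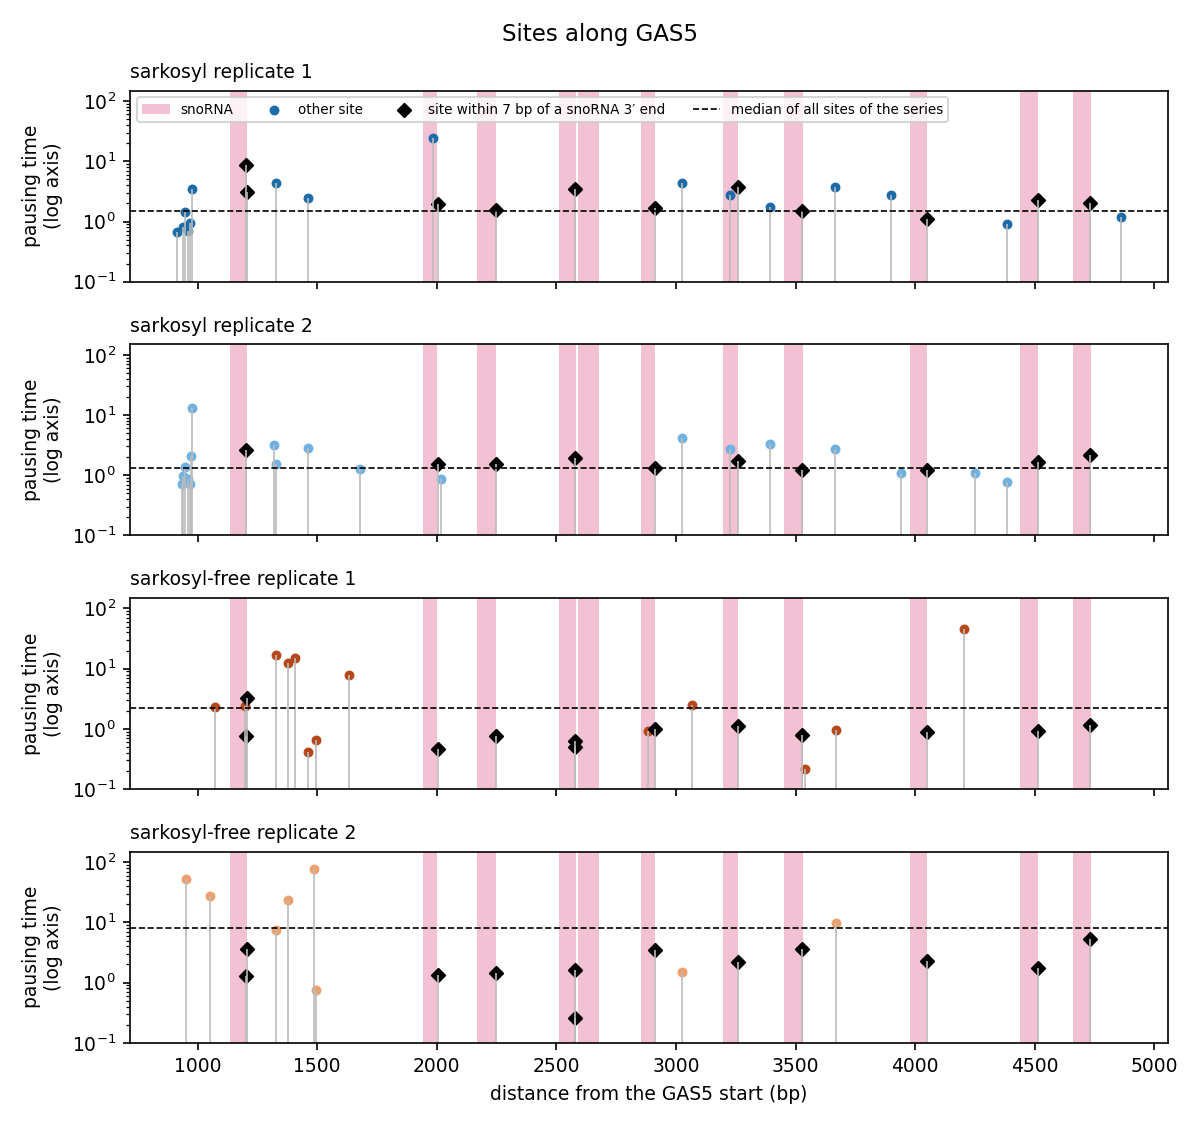
Pausing times (y axis, log scale) of GAS5 sites by distance from the start of the gene span (x axis, bp), 1 panel per series, with snoRNAs as pink bands and the series median as a dashed line. Black diamonds are sites within 7 bp of a snoRNA 3′ end, which lie mostly on or above the dashed line with sarkosyl and mostly below it without.

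Near transcription starts a different kind of recurrent site was found. The RefSeq promoter table (GRCh38.p14) had an entry for 8 of the 10 genes. The windows begin at the RefSeq start and are shown because they hold recurrent sites of 4 genes within 100 bp of it. Capitals mark bases listed in at least 3 series.
ZFAS1: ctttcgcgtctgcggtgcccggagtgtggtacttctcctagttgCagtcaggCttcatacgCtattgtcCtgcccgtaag
SNHG12: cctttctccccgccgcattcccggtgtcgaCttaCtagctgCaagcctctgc
SNHG8: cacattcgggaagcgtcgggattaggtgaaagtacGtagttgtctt
SNHG5: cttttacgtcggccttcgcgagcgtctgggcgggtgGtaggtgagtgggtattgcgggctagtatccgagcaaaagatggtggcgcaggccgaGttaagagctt

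The windows are chr20:49278642-49278721 (plus strand), chr1:28581822-28581873 (minus strand), chr4:118278762-118278807 (plus strand) and chr6:85678630-85678733 (minus strand). In ZFAS1, 4 C sites at 44, 52, 61 and 69 bp from the start were in all 4 series. At 52 bp the times were 0.62 and 0.87 with sarkosyl, against 3.38 and 16.4 in its absence. At 69 bp they were 1.47 and 1.27 with sarkosyl, against 3.65 and 15.9 in its absence. At these 2 positions the sarkosyl-free times were all longer. At 44 bp the times were 0.79 and 0.83 with sarkosyl, against 0.44 and 8.47 in its absence, and at 61 bp 1.23 and 1.21 with and 0.995 and 4.50 without, so there the sarkosyl-free replicates lay on both sides.

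In SNHG12 the C at 41 bp had times of 0.48 and 0.67 with sarkosyl, against 10.0 and 58.8 in its absence. In SNHG8 the G at 35 bp had 1.15 and 1.04 with sarkosyl, against 11.2 and 21.7 in its absence. An intron site of SNHG5, 4482 bp from the start, had 1.38 and 1.60 with sarkosyl, against 27.8 and 11.6 in its absence. These 3 had the smallest unadjusted p-values of the member sites in limma, with no overlap between buffers. Their log2 differences were -5.28 (SE 1.01), -3.70 (SE 0.75) and -3.46 (SE 0.81), each with a Benjamini-Hochberg adjusted p of 0.155 in limma. Leaving out each series in turn, these log2 differences ran from -6.50 to -4.06, from -4.12 to -3.28 and from -4.15 to -2.77. Each such fit leaves 1 series in an arm, so only the sizes are given. The SNHG5 site at 93 bp was long in every series, at 5.26 and 3.53 with sarkosyl, against 4.69 and 17.2 in its absence. The other marked sites were listed in 3 series. In SNHG12 the C at 34 bp had 0.50 and 0.87 with sarkosyl and a lower 0.35 in sarkosyl-free replicate 1. The C at 30 bp had 0.59 and 0.95 with sarkosyl, against 8.77 in sarkosyl-free replicate 2. In SNHG5 the G at 36 bp had 0.83 in sarkosyl replicate 2, against 2.07 and 30.3 without sarkosyl.

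Binned by distance from the 8 RefSeq starts, sites from 0 to 60 bp had log2 medians, relative to their series, of -0.85 over 12 sites and -0.63 over 11 with sarkosyl, and of 0.60 over 13 and 1.56 over 8 without it. From 61 to 100 bp the medians were 0.28 and -0.11 with sarkosyl, against 0.71 and 1.05 in its absence, over 3 to 8 sites. Beyond 100 and up to 300 bp they were 0.94 and 0.15 with sarkosyl, against -1.47 and 0.12 in its absence. The nearest bin thus had short times with sarkosyl and long ones without it. Its sites came from 5 of the 8 genes. In GAS5, SNHG3 and DANCR the RefSeq start lies upstream of the span, so the first bases after it were not searched. Measured from the GENCODE starts and over 300 bp, the difference from other member sites was 0.79 and 0.07 with sarkosyl, against -0.28 and 1.80 in its absence, and no buffer mean (0.43 ± 0.51 and 0.76 ± 1.47, SD, n = 2) exceeded its spread. The sarkosyl-free replicates differed in sign on this value.

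Sites were denser in exons, and in snoRNAs counted with their 3′ ends, than in the rest of the introns. Of the 46 distinct sites in snoRNAs only 12 lay over 7 bp from a 3′ end, by series 5, 7, 4 and 1. The high density of snoRNAs thus comes mostly from their 3′ ends. Per kb, the reference transcripts had 13.9 distinct sites in snoRNAs, 10.0 in exons and 6.55 in introns. By series the density was 9.65 to 10.9 sites per kb in snoRNAs, 2.28 to 5.06 in exons and 1.81 to 2.76 in introns. SNHG3 held 43 of the exon sites. Median pausing times in exons were 1.21 and 1.02 with sarkosyl, against 2.45 and 12.05 in its absence. The exon minus intron difference of log2 medians lay at -0.54 and -0.45 with sarkosyl (mean -0.50 ± 0.06, SD, n = 2), beyond the spread of the replicates. Without sarkosyl it was -0.92 and 0.48 (mean -0.22 ± 0.995, SD, n = 2) and within it. With the exons of all transcripts the sarkosyl value was -0.061. No member site lay on the last base of an exon, 5 of 501 lay within 2 bp of one, and 0 lay within 2 bp of the last base of an intron.

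Over all members the median log2 pausing time relative to all sites was 0.29 and 0.01 with sarkosyl (mean 0.15 ± 0.20, SD, n = 2), against 0.14 and -0.66 in its absence (mean -0.26 ± 0.56, SD, n = 2). Neither mean exceeded its spread. Without the sites at snoRNA 3′ ends the sarkosyl-free mean was 0.50 ± 0.33, of the opposite sign.

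The sites shared by the replicates of a buffer were ranked by their mean log2 time, and the first, called the longest here, lay away from the snoRNA 3′ ends in most genes. With sarkosyl they reached 58.8 and 5.15 in SNHG12, 20 bp after the last base of an exon, and 45.5 and 7.81 in SNHG1, inside SNORD31 and 32 bp before its 3′ end. Those of SNHG5 were 22.2 and 6.13, 158 bp from the start, and those of ZFAS1 were 10.8 and 13.2, in an intron. None of these 4 was listed without sarkosyl. Without sarkosyl the longest were 12.8 and 76.9 in SNHG3, 196 bp from the start, 14.1 and 58.8 in an intron of SNHG5, 16.7 and 38.5 in SNHG12 and 18.2 and 33.3 in SNHG15. None of these was listed with sarkosyl. In SNHG6 and DANCR the first by this mean without sarkosyl was the snoRNA 3′ end itself. The sarkosyl-free series shared only 1 site in SNHG6 and 2 in DANCR, so this ranking says little. The SNHG6 site was short for its series, at 0.57 and 1.56 (percentiles 22.5 and 20.6). In DANCR the other site had the longer time in sarkosyl-free replicate 2, 1.17 as against 1.02.

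The series of one buffer shared more member sites than those of different buffers. The sarkosyl series shared 113 sites, 57.7% of replicate 1 and 47.9% of replicate 2. The sarkosyl-free series shared 88, 40.2% of replicate 1 and 59.5% of replicate 2. Across buffers the 4 pairs shared 56 to 68 sites, 23.7% to 43.2% of a series. Over all sites of the tables the sarkosyl series shared 37.1% and 37.8%, and the sarkosyl-free series 21.04% and 33.3%. Across buffers the pairs shared 9.68% to 18.8% of all sites of a series. Greater sharing within a buffer was thus not particular to the members. By gene the distinct sites per kb of span ran from 1.89 in DANCR and 3.39 in SNHG6 to 10.8 in SNHG8 and 16.3 in SNHG3.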

How the data were processed

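Run-on libraries from HEK293 cells were analysed as 4 deposited tables, 1 per buffer and replicate. Per the file headers, each row holds a position, a strand, quantiles of an estimate and a pausing time. The deposited pausing time was 1 divided by the deposited median in every row, so the median is called a rate. The tables' tie to run-on times comes from their names and the sample titles. The submitters' processing notes list cutadapt 1.14, HISAT2 2.1.0, SAMtools, bedtools and hg38, without roles; the model and the site calling are not given in the sources used here. One further sample, from a treatment, was not analysed here. The number of value columns not mapped to a group was 0.

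Sites were placed on GENCODE v29, in the transcript tagged basic with most exons. The snoRNAs absent from it as separate genes were taken from RefSeq (GRCh38.p14). Positions count from 1: in that frame the base at the site had the same composition on both strands. Genes with at least 3 sites in each series, and sites common to all 4, were tested with limma 3.58.1 (R 4.3.3) and Benjamini-Hochberg adjustment at 0.05 over all genes or sites, after a check on simulated data. Other steps ran in pandas 2.3.3 and numpy 2.4.6 under Python 3.11.15, with plots from matplotlib 3.10.9. Class differences are descriptions, with the mean and SD over 2 series. Single sites named are those in most series, the longest in both series of a buffer, and the 3 with the smallest unadjusted p. Other sites and snoRNAs, the start windows and the 7 bp window at 3′ ends were chosen after their values were seen. The genes and lists were chosen with earlier results of these data known. Alternatives covered scaling, the summary of a gene, filters, annotation, windows, a replicate block and leaving out each series.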

Additional observations from a re-analysis of the deposited data

Results flagged for a closer look

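In the values below, the sarkosyl series all lay on one side of 0 and the sarkosyl-free series on the other, so the buffers point in opposite directions. Each value is the sarkosyl mean minus the sarkosyl-free mean on the log2 scale, over 2 series each. For the snoRNA minus intron difference it was 2.53, and for the pausing time at snoRNA 3′ ends against the series median 1.96; neither difference was tested. For the gene medians against the series median it was 1.68 in GAS5, 1.77 in SNHG1, 1.89 in SNHG12 and 1.88 in DANCR, where limma's adjusted p-values of 0.459, 0.505, 0.434 and 0.505 did not pass the threshold. For SNHG6 it was -0.53, and the difference was not tested. The 0 of the 3′ end and gene values is the median of all sites of a series. Relative to the common sites the 3′ end medians were 0.69 and 0.26 with sarkosyl, against -0.61 and 0.52 in its absence, so the buffers overlapped. How many of all genes had the buffers on opposite sides of 0 was not counted.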

How the results depend on the processing

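Leaving out a series ran with 1 sample in a buffer, assumed to vary like the other. Exon minus intron with sarkosyl was -0.061 with the exons of all transcripts and -0.40 without sites near starts; without sarkosyl it was 0.81 within genes, and -0.92 to 0.48 leaving out a series. SnoRNA minus intron with sarkosyl was 0.36 without sites near starts and -0.13 within genes; without sarkosyl it was -1.95 within genes and -2.50 for sites within 7 bp of 3′ ends. Start-proximal minus other with sarkosyl was -0.072 over 100 bp and -0.42 from RefSeq starts, and without sarkosyl -0.28 to 1.80 leaving out a series. Members against all sites, without sarkosyl, were 0.11 without sites near starts, 0.50 without 3′ end sites, and -0.66 to 0.14 leaving out a series. Centred on the common sites, the 3′ end level was 0.47 with sarkosyl and -0.046 without it. With a tolerance of 5 bp, 70 sites were in 4 series.

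For the buffer difference limma called 443 of 522 genes over the more certain sites, all lower with sarkosyl, and 0 to 243 of all genes leaving out a series. The filter on certainty keeps short times with sarkosyl (medians 0.883 and 1.001) and long ones without it (6.29 and 18.9), so its counts and signs follow from the selection and say nothing of these genes. For the level it called 1 gene with normal scores and 0 to 212 leaving out a series. Over common sites it called 158 with quantile normalization and 0 to 1597 leaving out a series. With a replicate block limma called 0 genes and 161 sites, 3 of them in members. Same-numbered replicates deviated together with a correlation of 0.0566 over genes and 0.0134 over sites, so the values show little pairing by number. Whether same-numbered replicates were prepared together is not known from the labels. The cause of the other shifts was not tested.

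Single genes whose sign turned had these buffer differences. Over the more certain sites, by that selection, they were -2.21 in GAS5, -1.47 in SNHG3, -3.26 in SNHG12 and -1.92 in ZFAS1. Without snoRNA sites they were -0.93, -0.30, -2.27 and -0.43. Without sites near starts they were -0.15 in SNHG3 and -0.32 in ZFAS1. With normal scores SNHG3 had -0.12, and with the mean of sites SNHG5 had 0.40 and SNHG15 0.060. Leaving out a series gave SNHG3 -0.40 to 0.43, SNHG15 -0.87 to 0.20 and ZFAS1 -0.72 to 0.74. The levels that turned were 0.80 in GAS5 and 0.75 in SNHG12 over the more certain sites, 0.50 and 0.72 without snoRNA sites, 0.36 in SNHG1 without sites near starts and -0.011 in SNHG3 with normal scores. Leaving out a series gave levels of -0.10 to 0.31 in SNHG3, -0.071 to 0.47 in SNHG15 and -0.34 to 0.39 in ZFAS1. Depth is unknown, so no limit from it can be given.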
